A study of Homo sapiens with 18 samples.

Results

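The mitosis and spindle genes described here are 45 listed genes that act in mitotic entry, at kinetochores, in the spindle checkpoint, as kinesins and in cytokinesis. They were taken by symbol from the list, whatever their level, and all 45 passed the filter on low counts, among 16786 genes tested. They were measured by polyA RNA-seq in U2OS, a line from a human osteosarcoma, with 18 libraries in 6 groups of 3 that the labels call biological replicates. All lines carried an integrated mCherry construct. One untreated group expressed mCherry alone (called mCherry below). Another carried mCherry-EWS-FLI1, the tagged form of the chimeric factor that drives Ewing sarcoma, which joins part of EWSR1 to the ETS factor FLI1. The last untreated groups carried altered forms of it, namely mCherry-EWS-FLI1mut and mCherry-EWS(YS37)-FLI1. The 2 treated groups were mCherry-EWS-FLI1 cells given 7.5 µM LY2835219 for 6 h or 24 h. LY2835219 is abemaciclib, an inhibitor of the cyclin D-dependent kinases CDK4 and CDK6.

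The labels do not name the change in EWS-FLI1mut, the promoter of the constructs, whether the lines were clonal or pooled, or whether untreated cells received vehicle. More than 1 kit is named for library preparation without saying which library used which. The treatment times conflict: the titles, characteristics and design text give 6 h and 24 h, used here, whereas the treatment protocol gives untreated, 3 h and 6 h. The labels do not settle which times the treated libraries had, so 6 h and 24 h below are the times of the titles. As the labels name 1 line per construct, the p-values measure the spread between libraries of 1 line and not between lines.

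Cells build the mitotic machinery anew in each cycle. Cyclin B bound to CDK1 drives entry into mitosis, the Aurora, Polo and NEK kinases build the spindle, and the kinetochore joins chromosomes to microtubules. The spindle checkpoint then holds back the anaphase-promoting complex until every kinetochore is attached. Transcription of these genes peaks late in the cycle, through the MuvB core complex with B-MYB (MYBL2) and FOXM1. In resting cells the same MuvB core joins RB-family proteins and E2F4 in the repressive DREAM complex, at a promoter motif called the CHR. CDK4 and CDK6 phosphorylate RB-family proteins, which is how an inhibitor of these kinases stops cells in G1. In bulk RNA, fewer cells in G2 and mitosis and less RNA per cell cannot be told apart.

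The promoters are shown first because the CHR and the CCAAT box, which binds NF-Y, are the elements this gene class is known for. RefSeq promoters (GRCh38.p14, 250 bases before to 50 after a start) were found for 38 of the 45 genes. AURKA, UBE2C, RACGAP1, TPX2, TTK, FOXM1 and BIRC5 had no entry. The 6 sequences below belong to the most abundant members by mean TPM that hold a CHR between 100 bases before and 30 after a listed start. Each runs 5′ to 3′ on the gene's strand, from 100 bases before the start to 20 after it. Capitals mark the CHR (TTTGAA, or TTCAAA on the other strand) and the CCAAT box (CCAAT, or ATTGG on the other strand).
CDC20, chr1:43358881-43359000, plus strand: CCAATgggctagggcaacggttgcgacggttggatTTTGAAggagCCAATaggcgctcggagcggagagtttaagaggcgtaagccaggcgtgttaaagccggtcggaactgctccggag
NUSAP1, chr15:41332781-41332900, plus strand: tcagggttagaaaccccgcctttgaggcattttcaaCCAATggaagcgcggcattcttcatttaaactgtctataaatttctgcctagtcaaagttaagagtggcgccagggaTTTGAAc
PLK1, chr16:23678789-23678908, plus strand: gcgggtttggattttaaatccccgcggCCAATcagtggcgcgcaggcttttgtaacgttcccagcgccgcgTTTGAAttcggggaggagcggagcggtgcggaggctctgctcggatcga
ANLN, chr7:36389762-36389881, plus strand: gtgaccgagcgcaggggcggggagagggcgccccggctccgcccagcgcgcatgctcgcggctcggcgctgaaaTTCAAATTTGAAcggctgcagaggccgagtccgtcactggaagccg
PRC1, chr15:90994516-90994635, minus strand: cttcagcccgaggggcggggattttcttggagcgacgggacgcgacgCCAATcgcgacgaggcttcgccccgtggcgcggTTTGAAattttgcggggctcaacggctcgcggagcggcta
CDK1, chr10:60778378-60778497, plus strand: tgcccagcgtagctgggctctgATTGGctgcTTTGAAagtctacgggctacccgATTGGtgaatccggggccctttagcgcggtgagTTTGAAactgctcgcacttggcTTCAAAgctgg

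In CDC20, the activator of the anaphase-promoting complex, the CHR began 65 bases before the start, with CCAAT boxes on both sides. In PLK1, the Polo kinase, it began 29 bases before the start, downstream of 1 CCAAT box, and PRC1, a bundler of midzone microtubules, had the same order. ANLN, the contractile-ring protein anillin, held 2 adjacent matches on opposite strands and no CCAAT box in the bases shown. Near the start, 23 of the 38 genes (60.5%) held a CHR, against 7.53% of the 27305 genes in the same RefSeq table. A CCAAT box stood there in 28 of 38 (73.7%) against 23.9%, and both motifs in 17 of 38 (44.7%) against 2.26%. An E2F motif (TTGGCGC, its variant TTCGCGC, or the variant TTCCCGC) was found near the start in 3 of 38 (7.90%), in CDK1, CDC25B and ECT2, against 6.56% of all genes. From 250 bases before to 50 after, an E2F motif stood in 9 of 38 (23.7%) against 13.1% of all genes. In that wider window a CHR stood in 27 of 38 (71.05%) against 18.2%, and a CCAAT box in 31 of 38 (81.6%) against 39.7%. MYBL2, CENPE, AURKB and KIF2C held neither CHR nor CCAAT box near the start. The motifs were searched on both strands, CHR, CCAAT and E2F matches may overlap at their ends, and a gene with several listed starts was counted once if any start held the motif. The background of 27305 genes is larger than the 16786 tested here, so it was not matched to the members for expression. A match is a description of the letters and not of binding.

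**Figure D1:**
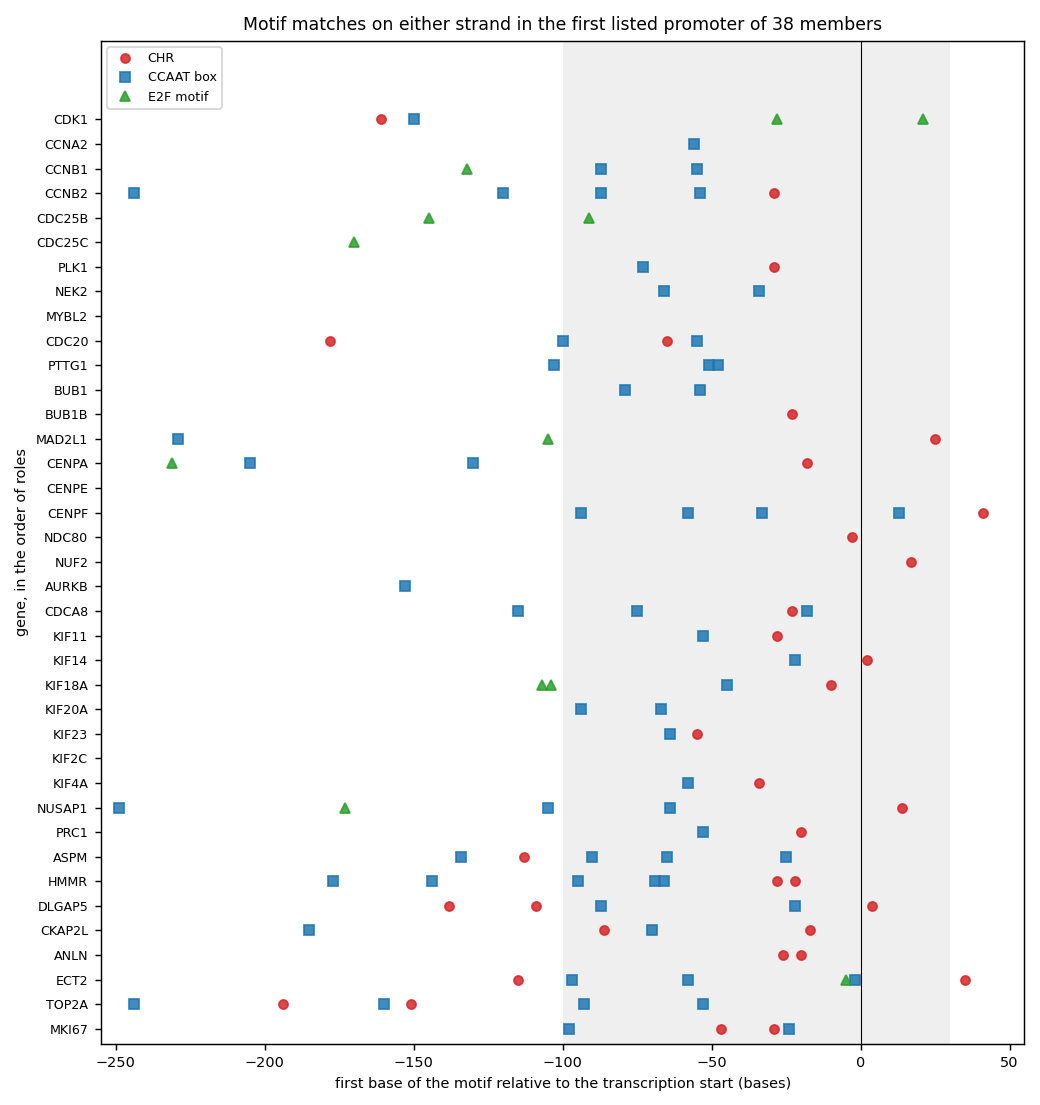
Positions of CHR (red), CCAAT (blue) and E2F (green) matches relative to the transcription start, in bases, in the first listed RefSeq promoter of each of 38 members, ordered by role. The grey band spans 100 bases before to 30 after the start, where CHR matches gather just before the start; CDC25C and CDK1 hold their CHR near another listed start, which is not drawn.

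No library stood apart from its group in the principal components. Total estimated counts ran from 16261034 to 20270637 per library. FLI1 averaged 247 ± 16.3 CPM (counts scaled by library size and TMM factors) with EWS-FLI1, 642 ± 19.9 with EWS-FLI1mut, 1019 ± 44 with EWS(YS37)-FLI1 and 0.546 ± 0.563 with mCherry (SD, n = 3 each here and below), so the 3 constructs differed in FLI1 RNA. Under LY2835219, FLI1 averaged 406 ± 21.8 CPM at 6 h and 236 ± 10.4 at 24 h. Of the osteoblast markers, RUNX2, SPARC and COL1A1 were expressed, whereas SP7, IBSP and BGLAP had at most 16 counts in any group. The blood marker CD3E had no count, and the 5 blood markers summed to at most 5.16 TPM in any library. The 7 epithelial markers summed to 818 ± 27.2 TPM in untreated EWS-FLI1 cells, 727 ± 10.4 at 6 h and 408 ± 15.3 at 24 h. They summed to 524 ± 26.1 TPM with mCherry, 719 ± 13.3 with EWS(YS37)-FLI1 and 769 ± 14.9 with EWS-FLI1mut, so every mCherry library was below every untreated library with a fusion construct. Single markers did not all follow these sums. In EWS-FLI1mut against mCherry, KRT8 (log2 fold change 0.69) and KRT18 (0.29) were higher at an adjusted p under 0.05 (edgeR). CDH1, EPCAM, KRT5 and KRT14 did not reach that limit there. The 9 osteoblast markers summed to 3559.8 ± 127 TPM with EWS-FLI1, 2793 ± 38.1 with mCherry, 2495 ± 161 in EWS-FLI1mut cells and 2055 ± 131 in EWS(YS37)-FLI1 cells, and the libraries of these 4 groups did not overlap. These markers also disagreed among themselves. In EWS-FLI1 against EWS-FLI1mut, ALPL (log2 fold change 1.09), COL1A1 (0.56), SPARC (0.52) and RUNX2 (0.30) were higher. SPP1 was lower (-1.15), and all 5 had an adjusted p under 0.05 (edgeR). The part of these marker levels in the results was not tested.

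Levels of different genes are compared per transcript length, in TPM. CCNB1, which encodes cyclin B1, was the most abundant member at 355 TPM averaged over the 18 libraries. UBE2C, the ubiquitin-conjugating enzyme of the anaphase-promoting complex, followed at 270.4 TPM, and securin (PTTG1) at 239 TPM. The least abundant were the kinesin KIF14 at 8.53 TPM, the kinetochore motor CENPE at 12.7 TPM and the spindle-pole protein ASPM at 13.4 TPM. Summed over the 45 genes, the level was 5802 ± 172 TPM in mCherry cells, 5629.5 ± 31.7 with EWS-FLI1mut, 5396 ± 247 with EWS(YS37)-FLI1 and 5063 ± 203 with EWS-FLI1. It was 2465 ± 67.3 TPM after 6 h of LY2835219 and 2142 ± 103 TPM after 24 h. On the CPM scale the highest group mean was that of mCherry for 33 genes, of EWS(YS37)-FLI1 for 11 and of EWS-FLI1mut for 1. The lowest was at 24 h for 32 genes and at 6 h for 13.

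**Figure D2:**
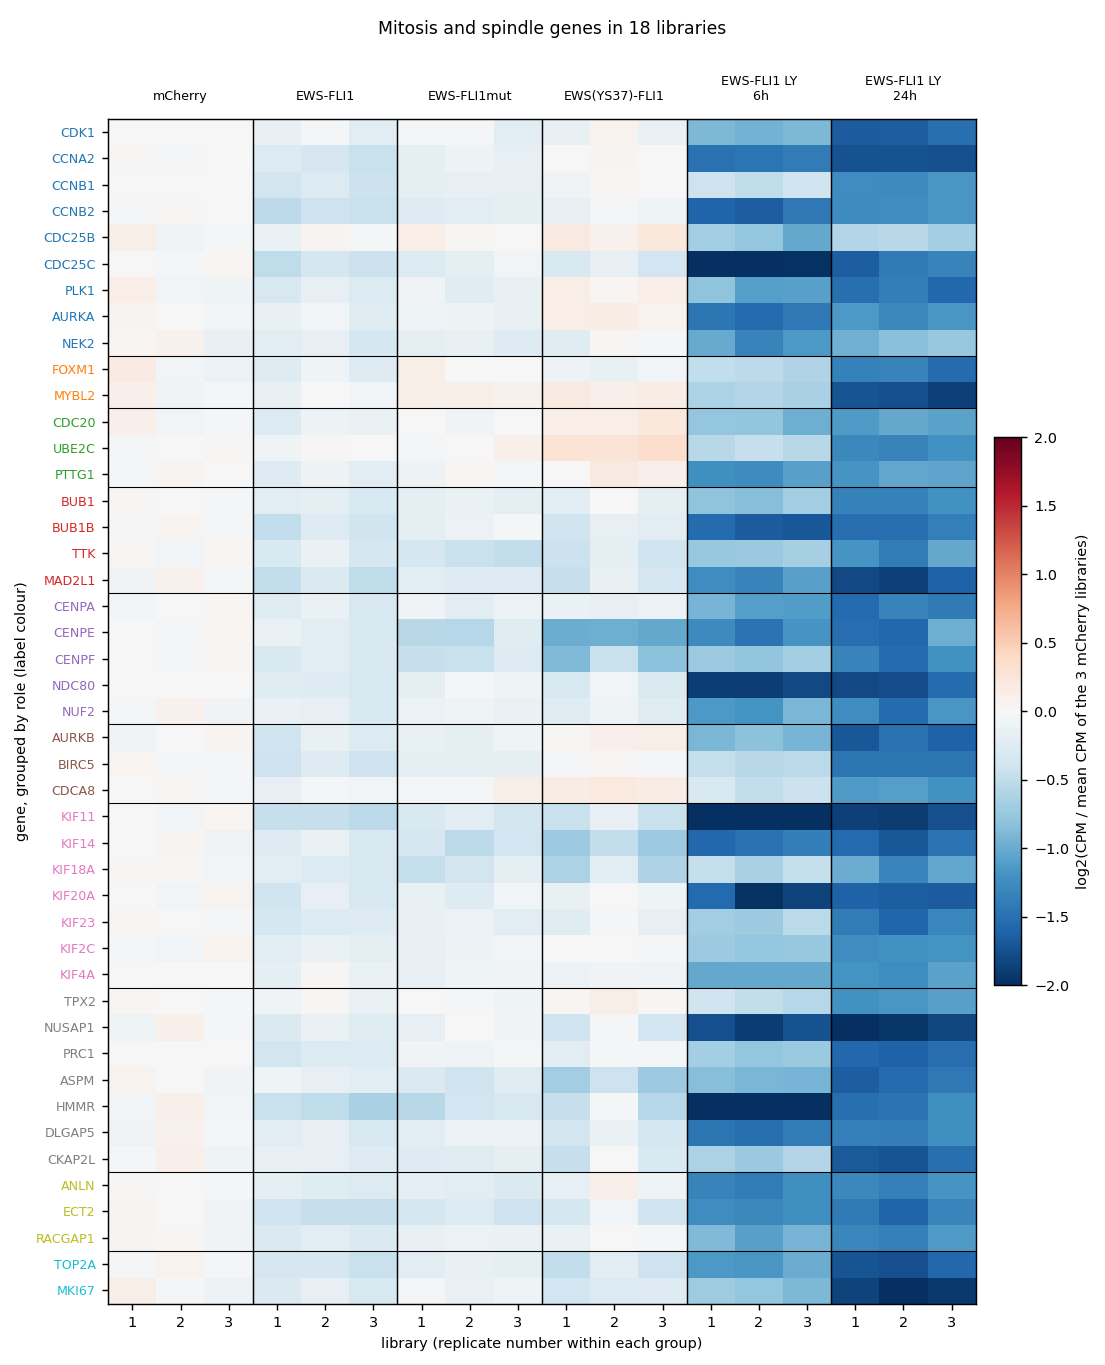
Level of each of the 45 genes (rows, grouped by role) in each of the 18 libraries (columns), as log2 of its CPM over the mean of the 3 mCherry libraries; the colour scale is saturated beyond -2 and 2. The 6 treated libraries are blue for nearly every gene, and CENPE, CENPF, KIF14 and ASPM are paler blue in the EWS(YS37)-FLI1 libraries.

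After 6 h of LY2835219 nearly every gene was lower. Of the 45, 44 fell against untreated EWS-FLI1 cells and none rose, at an adjusted p under 0.05 (edgeR quasi-likelihood, Benjamini-Hochberg over all genes). Of all genes tested, 33.3% were called lower and 31.6% higher. The median log2 fold change of the 45 was -0.78, against -0.02 over all genes. Fold changes below are log2 values with a standard error from 1 fit of all libraries. The scaling matters here: without scaling factors the median of all genes at 6 h was -0.27, and all 45 genes were then called lower. The mitochondrial share of counts was 5.87% to 6.59% in the treated libraries and 4.55% to 5.10% in the untreated EWS-FLI1 libraries, and its part in the result was not tested.

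The mitotic entry genes differed most among themselves at 6 h. CDC25C, a phosphatase that activates CDK1, had 18.9, 21.1 and 19.9 CPM in the untreated libraries and 5.81, 3.73 and 6.83 at 6 h. The groups were far apart, and the fold change of -1.87 ± 0.14 was the strongest of the 45 (adjusted p = 5.7e-11). CCNB1 had 307.1, 327 and 294 CPM untreated and 296, 279.6 and 302 at 6 h. These ranges overlapped, and CCNB1 was the 1 member not called (-0.08 ± 0.05, adjusted p = 0.155). On the TPM scale CCNB1 went from 364 ± 21.8 to 270.1 ± 14.6, and it was called lower without scaling factors, with upper-quartile factors and by limma on log2(TPM + 1). The related cyclin CCNB2 fell by 1.11 ± 0.06 and cyclin A2 (CCNA2) by 1.099 ± 0.05. Among the kinases, AURKA, of the spindle poles, changed by -1.32 ± 0.06, NEK2, which separates centrosomes, by -0.92 ± 0.09, CDK1 itself by -0.78 ± 0.07 and PLK1 by -0.74 ± 0.08. The phosphatase CDC25B changed by -0.79 ± 0.07.

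Both transcription factors of the programme fell less at 6 h than the median of the 45. FOXM1 went from 342 ± 24.8 to 270.3 ± 10.6 CPM (-0.34 ± 0.07), and MYBL2 from 454 ± 22.5 to 310.5 ± 5.96 CPM (-0.55 ± 0.05). The 3 genes around the anaphase-promoting complex all fell. UBE2C had 114, 123 and 122 CPM untreated and 82.6, 87.6 and 82 at 6 h, with no overlap (-0.51 ± 0.06), CDC20 changed by -0.68 ± 0.06, and PTTG1, the separase inhibitor, by -0.996 ± 0.07. The 4 spindle checkpoint genes fell too. BUB1B, which encodes BUBR1, a subunit of the mitotic checkpoint complex, fell most, from 101 ± 7.99 to 42.3 ± 2.52 CPM (-1.25 ± 0.08). MAD2L1, which encodes the checkpoint protein MAD2, had 104, 120.4 and 103 CPM untreated and 62.4, 58.2 and 69.3 at 6 h, again apart (-0.79 ± 0.08).

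Kinetochore genes fell unequally at 6 h. NDC80, the microtubule-binding subunit of the outer kinetochore, had 156, 153 and 146 CPM untreated and 50.03, 49.8 and 52.3 at 6 h. Every treated library was below every untreated one, with a change of -1.58 ± 0.07. Its partner NUF2 changed by -0.88 ± 0.09, the motor CENPE by -1.08 ± 0.11, the centromeric histone CENPA by -0.82 ± 0.07 and the large coiled-coil protein CENPF by -0.45 ± 0.09. The chromosomal passenger genes changed least of all roles with 3 or more genes, with a median of -0.33. Survivin (BIRC5) had 248, 278 and 248 CPM untreated and 239.9, 225 and 228 at 6 h, close but not overlapping (-0.16 ± 0.05, adjusted p = 0.00644). Borealin (CDCA8) changed by -0.33 ± 0.06 and the kinase of that complex, AURKB, by -0.62 ± 0.07.

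All 7 kinesins fell. KIF11, the plus-end motor Eg5 that pushes the spindle poles apart, had 157, 157 and 149.9 CPM untreated and 48.8, 47.7 and 53.3 at 6 h. The groups were far apart (-1.63 ± 0.07). KIF20A, a motor of cytokinesis, changed by -1.49 ± 0.08 and KIF14 by -1.25 ± 0.08. KIF2C, a microtubule depolymerase, had 199, 213 and 205 CPM untreated and 141, 137 and 139 at 6 h (-0.57 ± 0.05). KIF18A, which dampens chromosome movements, changed by -0.26 ± 0.10 and KIF23, of the central spindle, by -0.35 ± 0.07.

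Of the spindle-associated genes, HMMR, a hyaluronan receptor that also binds the spindle, had 49, 47.1 and 42.7 CPM untreated and 12.1, 12.1 and 15.6 at 6 h. The groups did not overlap (-1.80 ± 0.13). NUSAP1, a microtubule bundler, had 134, 150.1 and 138 CPM untreated and 48.5, 44.2 and 49.3 at 6 h, also apart (-1.57 ± 0.09). DLGAP5, which stabilises kinetochore fibres, changed by -1.23 ± 0.07, ASPM by -0.74 ± 0.08, CKAP2L by -0.46 ± 0.09, PRC1 by -0.43 ± 0.05 and TPX2, the activator of AURKA, by -0.43 ± 0.05. The cytokinesis gene ANLN had 428, 413 and 406 CPM untreated and 194, 185 and 209 at 6 h (-1.08 ± 0.06). The RhoA exchange factor ECT2 changed by -0.81 ± 0.08 and its partner RACGAP1 by -0.70 ± 0.06. Topoisomerase II alpha (TOP2A), which untangles sister chromatids, changed by -0.73 ± 0.07 and MKI67, which encodes the proliferation antigen Ki-67, by -0.54 ± 0.06.

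**Figure D3:**
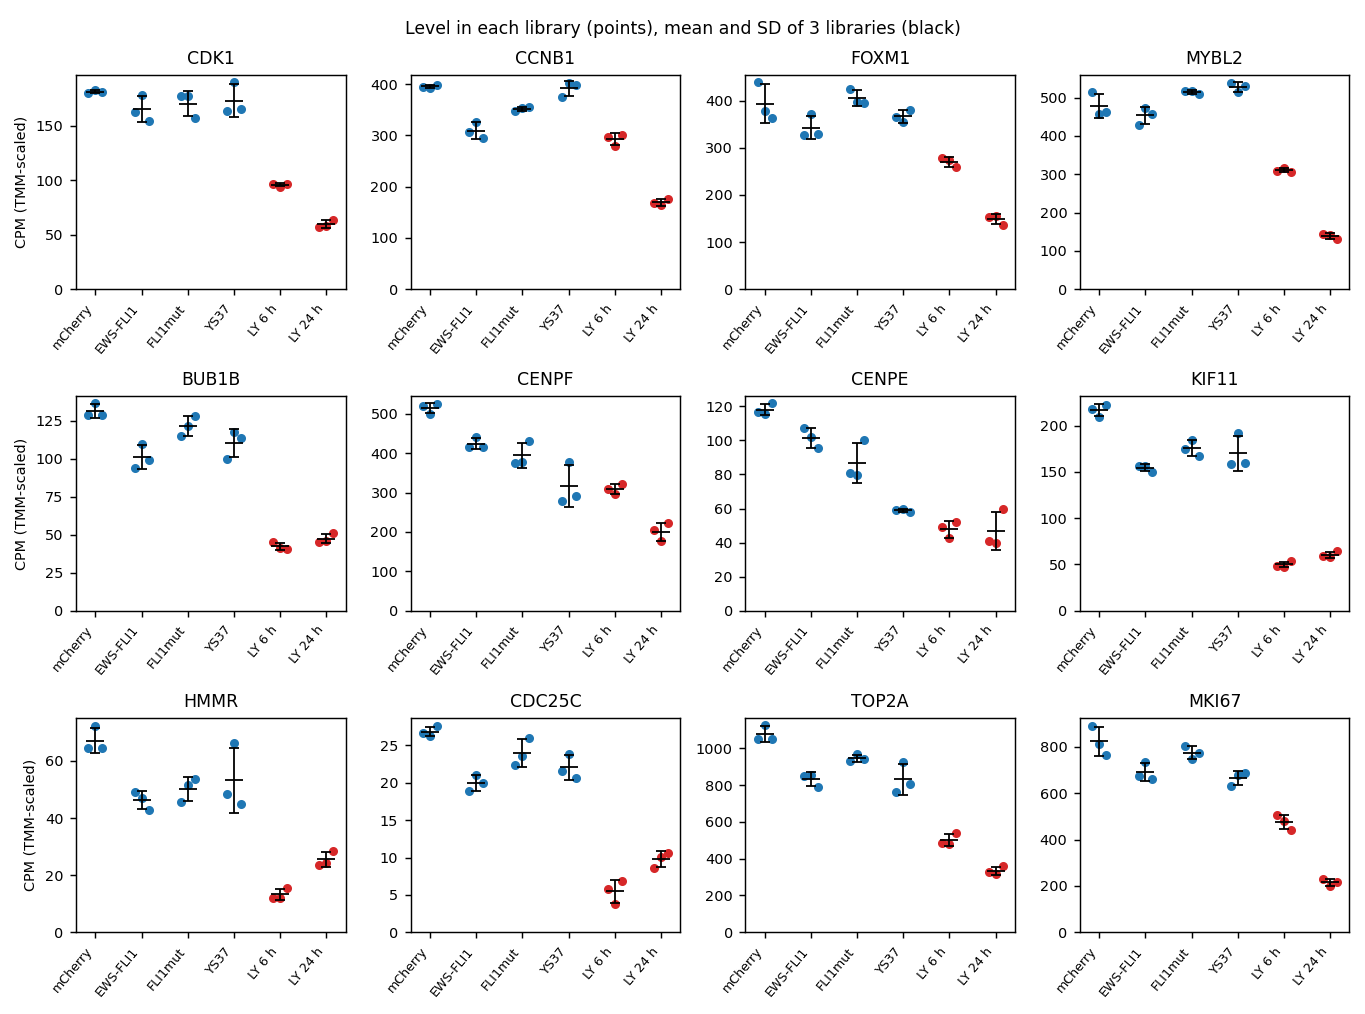
CPM of 12 members in each library, with untreated libraries as blue points, LY2835219 libraries as red points, and the mean and SD of 3 libraries in black (FLI1mut and YS37 on the axis are EWS-FLI1mut and EWS(YS37)-FLI1). CCNB1 at 6 h overlaps its untreated EWS-FLI1 level, whereas HMMR and CDC25C are lowest at 6 h and MYBL2 and MKI67 at 24 h.

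After 24 h all 45 genes were lower than in untreated EWS-FLI1 cells, when 24.6% of all genes tested were called lower. The median log2 fold change was -1.101, against 0.03 over all genes, and every alternative and every left-out library gave 45. NUSAP1 changed most, to 37.5, 42.5 and 46.6 CPM (-1.74 ± 0.09). MYBL2 went from 429.5, 474 and 458 CPM untreated to 145, 141 and 131 (-1.71 ± 0.06). MKI67 went from 675, 735 and 660.1 to 229, 199 and 217 CPM (-1.68 ± 0.07). CDK1 went from 163, 178 and 154 to 57.2, 57.7 and 63.7 CPM (-1.47 ± 0.07). In each of these 4 genes the lowest untreated library was well above the highest treated one. The smallest change was that of CDC25B at -0.58 ± 0.07, and the range from -1.74 to -0.58 was narrower than that from -1.87 to -0.08 at 6 h. By role, the largest median changes were those of the chromosome structure genes (only TOP2A and MKI67) at -1.50 and the transcription factors (only FOXM1 and MYBL2) at -1.46. The anaphase-promoting complex group changed least, with a median of -0.91.

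Between 6 h and 24 h the members split. From 6 h to 24 h 28 of the 45 fell and 7 rose, when 30.3% of all genes tested were called lower and 32.6% higher. This comparison and the 6 h comparison share the 6 h libraries, so a low 6 h value enters both. Without scaling factors 21 fell and 13 rose, with upper-quartile factors 25 and 12, and by limma on log2(TPM + 1) 17 and 9. The direction of CDC20, KIF4A and NUF2 turned without scaling factors, and none of these 3 was then called. MYBL2 had 308, 317 and 306 CPM at 6 h and 145, 141 and 131 at 24 h, with no overlap (-1.16 ± 0.05). MKI67 had 504, 480.4 and 443 CPM at 6 h and changed by -1.15 ± 0.07. CKAP2L, a spindle-pole protein, went from 72.8, 67.5 and 75.1 CPM to 35.2, 34 and 39.7 (-0.98 ± 0.09). BIRC5 (-0.94 ± 0.05), FOXM1 (-0.86 ± 0.07), PRC1 (-0.84 ± 0.06) and CCNB1 (-0.79 ± 0.05) followed.

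The 7 genes that rose after 6 h were HMMR, CDC25C, CCNB2, NEK2, KIF11, AURKA and CDC25B, 5 of them from the 9 mitotic entry genes. HMMR had 23.7, 24.2 and 28.6 CPM at 24 h, above each 6 h library and below each untreated one (0.94 ± 0.14 against 6 h, -0.86 ± 0.12 against untreated). CDC25C had 8.6, 10.1 and 10.6 CPM at 24 h, also between the 6 h and untreated ranges (0.84 ± 0.15). The other 5 rose by 0.22 to 0.34. In 10 genes no change after 6 h was called, among them NDC80 (0.16 ± 0.08), NUSAP1 (-0.17 ± 0.10), KIF20A (0.14 ± 0.09) and ANLN (0.05 ± 0.06). CENPE was also not called (-0.03 ± 0.12), with 40.9, 39.8 and 59.9 CPM at 24 h, where 1 library was higher than the others. By pattern, 27 genes were lower at 6 h and lower again at 24 h, 7 were lower and then higher, 10 were lower with no later change called, and CCNB1 was called lower from 6 h to 24 h but not at 6 h.

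**Figure D4:**
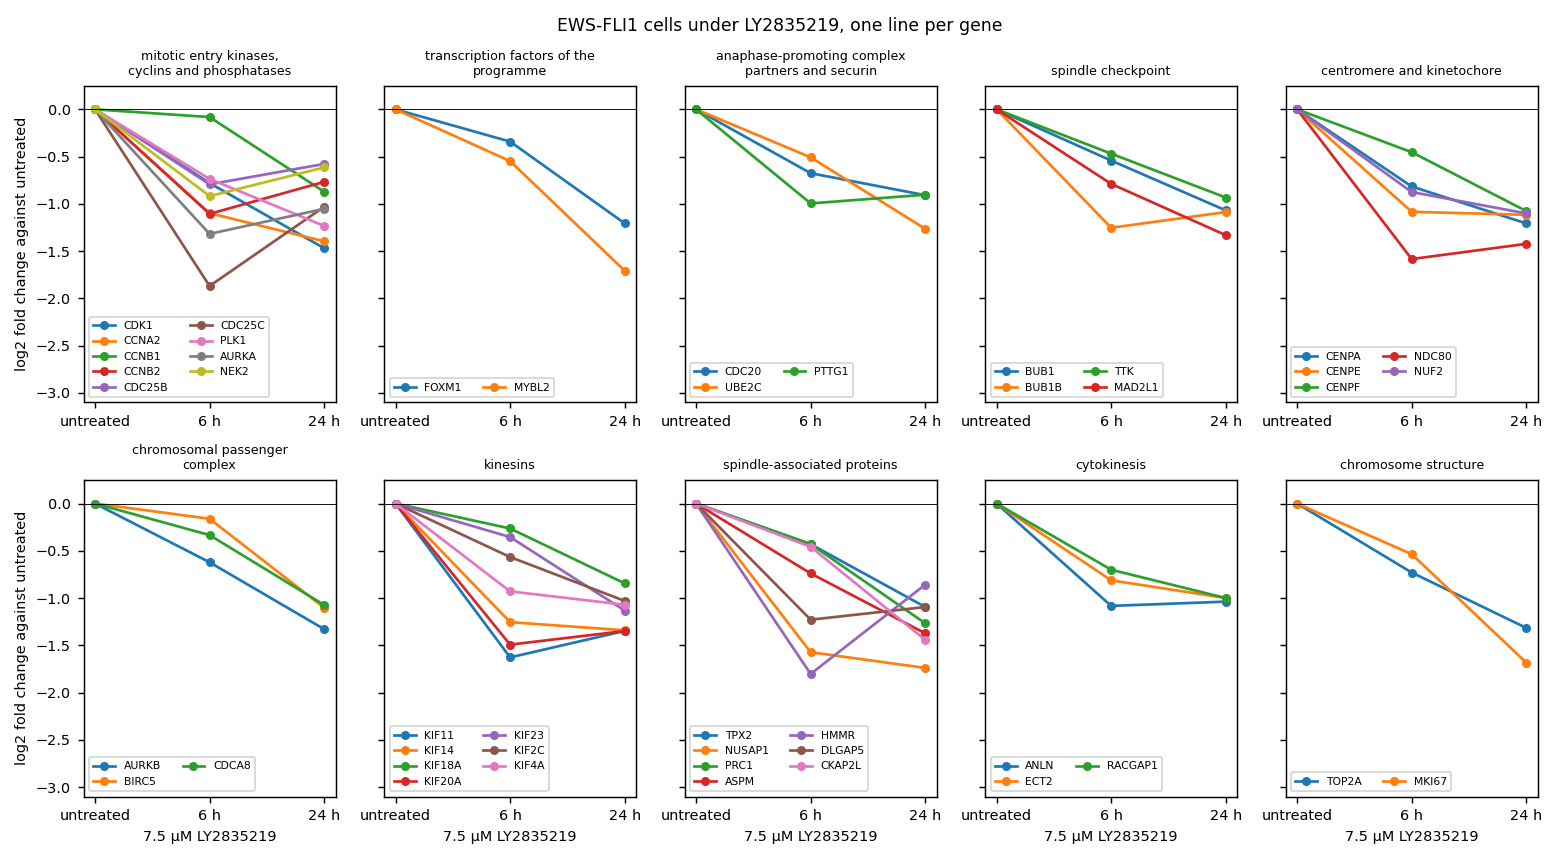
Log2 fold change of each gene at 6 h and 24 h of 7.5 µM LY2835219 against untreated EWS-FLI1 cells, 1 panel per role and 1 line per gene, with the times evenly spaced. All lines end between -0.58 and -1.74, and HMMR and CDC25C turn upward after 6 h while MYBL2, MKI67 and CCNB1 go on downward.

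A further 89 mitotic genes, not among the 45, were read beside them. At 6 h 74 fell and 5 rose, with a median of -0.73, when 33.3% of all genes tested were called lower and 31.6% higher. Those 5 were CKS2 (0.76 ± 0.05), MAD2L1BP (0.83 ± 0.10), FBXO5 (0.59 ± 0.07), CDCA5 (0.48 ± 0.06) and CENPL (0.24 ± 0.09), named after their values were seen. FBXO5 encodes EMI1, an inhibitor of the anaphase-promoting complex, and CDCA5 the cohesin protector sororin. At 24 h 85 of the 89 were lower than untreated and none was higher, and from 6 h to 24 h 54 fell and 21 rose. Of all genes tested, 24.6% were called lower at 24 h, and 30.3% fell and 32.6% rose from 6 h to 24 h. The strongest falls at 6 h were SPC25 (-2.66 ± 0.24) and SPC24 (-2.03 ± 0.13), the partners of NDC80 and NUF2 in the 4-subunit NDC80 complex, CENPI of the inner kinetochore (-2.20 ± 0.10) and BORA, the activator of AURKA towards PLK1 (-2.14 ± 0.26). After 6 h FBXO5 (-1.71 ± 0.07) and CDCA5 (-1.54 ± 0.06) fell, and the checkpoint gene MAD1L1 (1.32 ± 0.07) and BORA (1.29 ± 0.27) rose.

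Genes of 2 other lists were read as well. Of 36 G1/S and replication genes, 35 fell at 6 h, with a median of -1.23, and from 6 h to 24 h 17 rose and 10 fell. At 24 h against untreated cells 35 of the 36 were lower, with a median of -1.102. Of all genes tested, 33.3% were called lower and 31.6% higher at 6 h. The shares were 24.6% lower and 23.3% higher at 24 h against untreated cells, and 30.3% and 32.6% from 6 h to 24 h. Of 12 MuvB and pocket protein partners, 7 fell and 2 rose at 6 h. The RB relatives RBL1 (-1.97 ± 0.10) and RBL2 (-0.997 ± 0.07) fell at 6 h, and both rose from 6 h to 24 h (1.08 ± 0.10 and 1.06 ± 0.07). CDKN1A, which encodes the CDK inhibitor p21, rose by 1.53 ± 0.06 at 6 h and was still higher than untreated at 24 h (0.74 ± 0.06).

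In the RefSeq promoters, the 23 genes with a CHR near a start had a median fold change of -0.88 at 6 h, with single genes from -1.87 to -0.26. The 15 without one had a median of -0.74, from -1.49 to -0.08. At 24 h the medians were -1.13 and -1.08. The ranges overlapped throughout, and these medians are given without a test.

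Untreated cells with EWS-FLI1 had slightly lower levels than mCherry cells. Of the 45 genes, 30 were lower and none higher, when 9.95% of all genes tested were called lower, and the median log2 fold change was -0.24. The changes were small next to those under LY2835219. The epithelial and osteoblast marker sums given above also differed between mCherry and each fusion line, and their part in this and the other comparisons with mCherry was not tested. HMMR had 64.4, 72.1 and 64.7 CPM with mCherry and 49, 47.1 and 42.7 with EWS-FLI1 (-0.54 ± 0.11, adjusted p = 0.00151). KIF11 had 218, 209 and 222 and 157, 157 and 149.9 CPM in the same order (-0.49 ± 0.07, adjusted p = 1.09e-05). Neither pair of groups overlapped. CCNB2 had 126, 129 and 128 CPM with mCherry and 89.2, 96.1 and 94.1 with EWS-FLI1 (-0.45 ± 0.06), and ECT2 134, 131 and 124 and 97.7, 93.5 and 94.3 (-0.44 ± 0.08). All 4 checkpoint genes and all 3 cytokinesis genes were lower. Levels of UBE2C (-0.01 ± 0.06), CDC25B (-0.03 ± 0.07), TPX2 (-0.06 ± 0.05) and MYBL2 (-0.07 ± 0.05) were not called. Of the other 89 mitotic genes 48 were lower, CENPH most (-0.70 ± 0.09), and of the 36 G1/S genes 29 were lower, with a median of -0.36.

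The number of these calls depended on the treatment of transcript length and on single libraries. With transcript length offsets 12 of the 45 were called and by limma on log2(TPM + 1) 11, all lower. Without EWS-FLI1 replicate 3 there were 16 calls and without EWS-FLI1 replicate 1 there were 19, all lower. HMMR was not called by limma on log2(TPM + 1) (-0.54, adjusted p = 0.0612).

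EWS-FLI1mut cells lay between EWS-FLI1 and mCherry cells in mean summed level. Their libraries, at 5593 to 5652 TPM, overlapped those of mCherry, at 5610 to 5944.5 TPM. Against mCherry 13 of the 45 genes were lower and none higher, with a median of -0.15. Of all genes tested 7.15% were called, 3.62% as lower and 3.53% as higher. CENPE had 117, 116 and 122 CPM with mCherry and 80.8, 79.4 and 100.0 with EWS-FLI1mut, where replicate 3 was closer to mCherry (-0.44 ± 0.11, adjusted p = 0.0133). TTK, the checkpoint kinase MPS1, had 50.1, 47.5 and 50.9 and 39.3, 36.2 and 35.3 CPM (-0.42 ± 0.09, adjusted p = 0.00336). KIF14 had 74.1, 76.7 and 70.5 and 58.7, 51.4 and 56.4 CPM (-0.41 ± 0.08), and HMMR had 45.4, 51.6 and 53.6 CPM with EWS-FLI1mut (-0.42 ± 0.11). None of these 4 pairs of groups overlapped. Single genes did not all follow the order of the sums. CENPE averaged 86.7 CPM with EWS-FLI1mut and 101.6 with EWS-FLI1, TTK 37.0 and 41.5, and KIF14 55.5 and 63.0. HMMR averaged 50.2 and 46.25 CPM, and none of these genes was called between EWS-FLI1 and EWS-FLI1mut. The count was fragile: it was 2 with transcript length offsets, 0 by limma on log2(TPM + 1), where 7 had an unadjusted p under 0.05, 17 by DESeq2, and 5 to 10 with 1 library left out. It moved by more than 1.5 times without any of the 3 mCherry libraries (8, 7 and 7 calls for replicates 1, 2 and 3) or without EWS-FLI1mut replicate 1 or 2 (6 and 5 calls).

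Against EWS-FLI1mut, 8 of the 45 genes were lower in EWS-FLI1 cells and none higher, when 7.51% of all genes tested were called lower and 8.78% higher. BUB1B had 115, 122 and 128 CPM with EWS-FLI1mut and 93.8, 109.6 and 99.5 with EWS-FLI1, without overlap (-0.27 ± 0.07, adjusted p = 0.0107). FOXM1 had 425, 397 and 395 and 327, 371 and 329 CPM (-0.25 ± 0.07), PRC1 214, 211 and 220.3 and 175, 186 and 186 (-0.24 ± 0.05), and CCNB2 107, 109.5 and 112 and 89.2, 96.1 and 94.1 (-0.23 ± 0.06). The other 4 were CCNA2, CCNB1, MYBL2 and BIRC5. The count was 14 without scaling factors, 5 by limma on log2(TPM + 1) 9 by DESeq2 and 0 with transcript length offsets (edgeR), where 9 had an unadjusted p under 0.05. It was 4 without EWS-FLI1 replicate 1, 2 without EWS-FLI1 replicate 3 and 5 without EWS-FLI1mut replicate 1.

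In EWS(YS37)-FLI1 cells a few kinetochore, kinesin and spindle-pole genes were well below mCherry, while no mitotic entry gene was called. Of the 45, 17 were lower and 1 was higher. Of all genes tested 21.7% were called, 10.2% as lower and 11.5% as higher. CENPE had 117, 116 and 122 CPM with mCherry and 59.3, 59.8 and 58 with EWS(YS37)-FLI1. All 3 libraries were far below mCherry (-0.999 ± 0.11, adjusted p = 4.6e-07). CENPF had 519, 500.1 and 525 and 278, 377 and 292 CPM (-0.71 ± 0.09, adjusted p = 2.21e-06). KIF14 had 74.1, 76.7 and 70.5 and 44.4, 52.6 and 44.8 CPM (-0.64 ± 0.08). ASPM had 152, 145 and 137 and 89, 109 and 87 CPM (-0.61 ± 0.08). The groups did not overlap in any of these 4, and in CENPF, KIF14 and ASPM replicate 2 of EWS(YS37)-FLI1 was the highest of its group. All 4 were also called lower in EWS-FLI1mut cells against mCherry, with smaller changes. These were -0.44 ± 0.11 for CENPE, -0.41 ± 0.08 for KIF14, -0.38 ± 0.09 for CENPF and -0.31 ± 0.07 for ASPM. By limma on log2(TPM + 1), 0 of the 45 were called in EWS-FLI1mut against mCherry.

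None of the 9 mitotic entry genes was called in EWS(YS37)-FLI1 against mCherry, when 21.7% of all genes tested were called. Their changes ran from -0.28 ± 0.12 for CDC25C, whose groups did not overlap, to 0.16 ± 0.07 for CDC25B. CCNB1 had 376, 403 and 398 CPM (-0.01 ± 0.05). UBE2C was the 1 gene called higher, with 117, 121 and 123 CPM with mCherry and 146, 145 and 154 with EWS(YS37)-FLI1 (0.30 ± 0.06, adjusted p = 0.000333). Of the other 89 mitotic genes 17 were lower and 2 higher, when 10.2% of all genes tested were called lower and 11.5% higher. SGO2, the protector of centromeric cohesion, changed by -0.70 ± 0.10, the kinesin KIF20B by -0.70 ± 0.10, the kinetochore scaffold KNL1 by -0.50 ± 0.08 and the condensin subunit SMC4 by -0.50 ± 0.09. The count of 18 fell to 11 without mCherry replicate 2 and to 11 without EWS(YS37)-FLI1 replicate 1, and was 20 without EWS(YS37)-FLI1 replicate 2. It was 12 with transcript length offsets. CENPE, CENPF, KIF14 and ASPM were called in each of these.

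**Figure D5:**
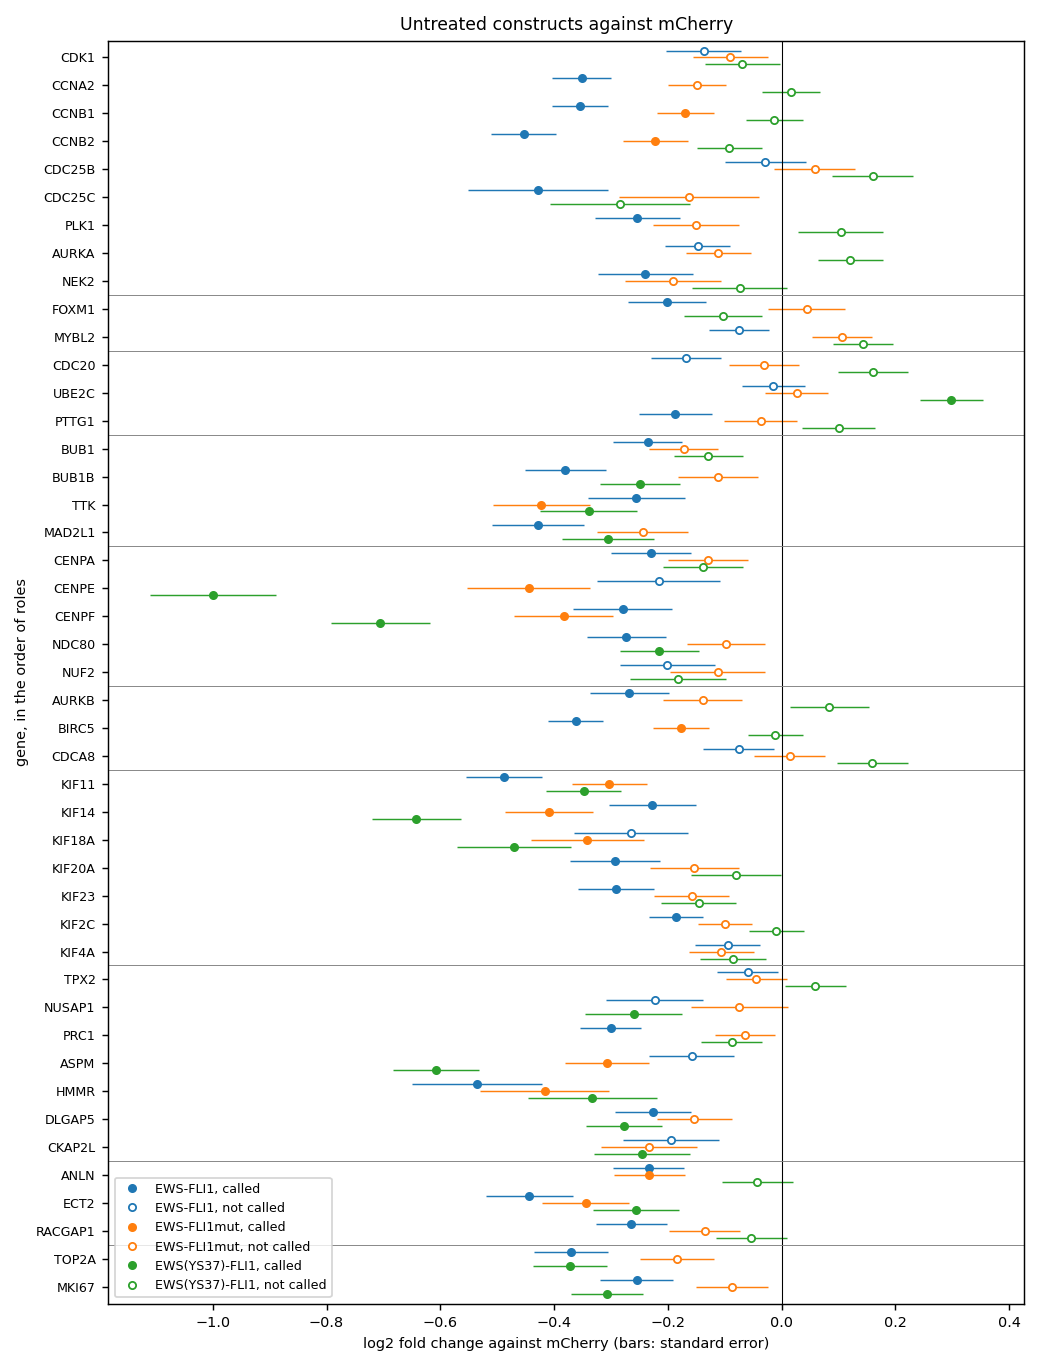
Log2 fold change against mCherry of each gene in untreated cells with EWS-FLI1 (blue), EWS-FLI1mut (orange) and EWS(YS37)-FLI1 (green), with standard errors as bars and filled points for an adjusted p under 0.05. Blue points lie to the left of 0 for all genes, and the green points of CENPE, CENPF, KIF14 and ASPM lie farthest left while that of UBE2C lies to the right.

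The 2 constructs were also compared directly. In EWS-FLI1 against EWS(YS37)-FLI1 cells 18 of the 45 genes were lower and 4 higher, when 16.3% of all genes tested were called lower and 14.8% higher. The 4 higher genes were CENPE (0.78 ± 0.11), ASPM (0.45 ± 0.08), CENPF (0.43 ± 0.09) and KIF14 (0.42 ± 0.08). CENPE had 107, 102 and 95.6 CPM with EWS-FLI1, ASPM 137, 129 and 123, CENPF 417, 441 and 415 and KIF14 61.7, 67.4 and 59.9, each above all 3 EWS(YS37)-FLI1 libraries. The 18 lower genes included CCNA2 (-0.37 ± 0.05), CCNB2 (-0.36 ± 0.06), PLK1 (-0.36 ± 0.08), BIRC5 (-0.35 ± 0.05), AURKB (-0.35 ± 0.07) and CDC20 (-0.33 ± 0.06). By limma on log2(TPM + 1) 8 were lower and 4 higher. FLI1 RNA differed between these lines, and its part in the differences was not tested.

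In EWS(YS37)-FLI1 against EWS-FLI1mut cells 9 of the 45 were higher and 6 lower, when 14.5% of all genes tested were called higher and 12.7% lower. CENPE (-0.55 ± 0.11), CENPF (-0.32 ± 0.09) and ASPM (-0.30 ± 0.08) were lower and UBE2C (0.27 ± 0.06) was higher. UBE2C had 118, 121 and 129.9 CPM with EWS-FLI1mut, below each EWS(YS37)-FLI1 library, whereas the CENPF ranges overlapped. The balance of directions was not stable. With upper-quartile factors 6 were higher and 7 lower, without scaling factors 2 and 9, by limma on log2(TPM + 1) 1 and 6, and with transcript length offsets 4 and 1. Without EWS(YS37)-FLI1 replicate 2 it was 4 and 10, without EWS-FLI1mut replicate 2 it was 4 and 5, and without EWS-FLI1mut replicate 1 or EWS(YS37)-FLI1 replicate 3 it was 6 and 3.

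The 4 genes lowest in EWS(YS37)-FLI1 cells against mCherry were long ones. CENPE spans 92604 bases of the genome (chr4:103105806-103198409, hg38, minus strand), CENPF 61394 (chr1:214603195-214664588, plus strand), KIF14 69238 (chr1:200551497-200620734, minus strand) and ASPM 62567 (chr1:197084128-197146694, minus strand). UBE2C spans 4382 (chr20:45812576-45816957, plus strand), and the median member 31743. Not every long member was called lower. KIF4A, the longest at 130743 bases, changed by -0.09 ± 0.06 and NUF2, at 89189 bases, by -0.18 ± 0.08, neither of them called. KIF18A, at 87689 bases, was called lower (-0.47 ± 0.10). Across the 45 genes, Spearman's rho between gene span and log2 fold change was -0.60 for EWS(YS37)-FLI1 against mCherry and 0.66 for EWS-FLI1 against EWS(YS37)-FLI1. Over 15432 protein-coding genes it was -0.08 and 0.15. For EWS-FLI1mut against mCherry it was -0.35 across the 45 and 0.04 over the protein-coding genes, and for EWS-FLI1 against EWS-FLI1mut 0.36 and 0.08, so the relation was not seen in EWS(YS37)-FLI1 alone. Across the 45 it was -0.60 for EWS(YS37)-FLI1 against EWS-FLI1mut, -0.01 for EWS-FLI1 against mCherry and -0.21 for 6 h of LY2835219. These comparisons share libraries. Genes are not independent replicates and the 45 points share the same libraries. With the mean effective transcript length in place of the span, rho across the 45 was -0.50 for EWS(YS37)-FLI1 against mCherry, 0.55 for EWS-FLI1 against EWS(YS37)-FLI1 and -0.41 for EWS-FLI1mut against mCherry. Over the protein-coding genes it was -0.05, 0.18 and 0.12 in the same order. Gene span and transcript length were thus not separated.

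Transcript use under LY2835219 was read from the share of each gene's most abundant transcript, which moved by under 5 percentage points in 18 of the 45 genes. The most abundant transcript was protein coding in 43 of the 45 genes and held a median of 71.4% of its gene's TPM in untreated EWS-FLI1 cells. Its share moved by a median of 5.80 percentage points at the time of larger shift. ANLN moved most: ANLN-201 held 60.9%, 55.5% and 50.4% of the gene's TPM in the untreated libraries, 27.5%, 22.9% and 20.5% at 6 h and 52.3%, 62.9% and 61.3% at 24 h. The 6 h libraries were below all others. ANLN-202 went the other way, from 25.9 ± 0.766% to 56.7 ± 3.17% at 6 h and 31.04 ± 2.34% at 24 h. DLGAP5-201 went from 71.4 ± 3.21% to 50.8 ± 3.19% at 6 h and 71.2 ± 1.82% at 24 h, and CDCA8-202 from 64.1 ± 1.64% to 39.5 ± 8.88% and 53.5 ± 5.93%. CDC25C-201 held 33.8 ± 8.58% untreated and 4.35 ± 7.54% at 6 h, where it rested on 12.4 estimated counts in 3 libraries. These shares are estimates of the authors' quantification and were not tested.

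Some members share sequence with other genes, so their counts are less certain. Of the 31-base stretches in the most abundant transcript of PRC1, 87.7% also occur in AC068831.7, and of those of NUSAP1, 63.0% in AC087721.2. The share was 28.6% for KIF4A with KIF4B, 25.1% for CDC20 with CDC20P1 and 22.0% for PTTG1 with PTTG3P.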

How the data were processed

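PolyA RNA of 18 libraries was measured by the authors with kallisto 0.46 on hg38 after CASAVA, per the submitters' processing notes. Per the file headers, the deposited tables give estimated counts, TPM and an effective length per transcript. The transcript set and strandedness are not given in the sources used here. Transcripts were joined to genes by Ensembl identifier with GENCODE 29, and 2.59% to 2.74% of a library's counts matched no gene and stayed out. Gene counts are sums of the estimated counts, rounded to whole numbers. A single quasi-likelihood fit of the 18 libraries with edgeR 4.0.16 (R 4.3.3, filterByExpr, TMM factors, 12 residual degrees of freedom) tested 16786 genes in 9 comparisons, with Benjamini-Hochberg adjustment over all of them and a call at an adjusted p under 0.05. The biological coefficient of variation was 8.77%. Dividing the size of a log2 fold change by the root of its F statistic gave the standard error.

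The members and lists were chosen with earlier results of these data known. Values per library are printed for the 4 called members with the largest absolute log2 fold change in each comparison and for the most abundant member by TPM of each role of 3 or more genes. Up to 4 called genes per comparison were named from the other mitotic genes, and at 6 h of LY2835219 all that rose were named as well. Alternatives were DESeq2 1.42.0, upper-quartile or no scaling factors, no filter, transcript length offsets, limma 3.58.1 on log2(TPM + 1), a fit of the 2 compared groups, a replicate block, and each library left out. The edgeR step was tested on simulated data.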

Additional observations from a re-analysis of the deposited data

Results flagged for a closer look

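For 35 of the 45 genes the LY2835219 effect differed between 6 h and 24 h by a test of the difference (edgeR, adjusted p under 0.05), where 62.9% of all genes differed. As both effects use the same untreated libraries, the difference equals the 24 h against 6 h comparison, and its log2 value is given as 24 h minus 6 h. The effect was larger at 24 h, with a difference of -1.16 for MYBL2, -1.15 for MKI67, -0.98 for CKAP2L, -0.94 for BIRC5, -0.86 for FOXM1, -0.84 for PRC1, -0.79 for CCNB1, -0.78 for KIF23, -0.76 for UBE2C, -0.74 for CDCA8 and -0.71 for AURKB. It was -0.69 for CDK1, -0.66 for TPX2, -0.63 for ASPM, -0.62 for CENPF, -0.59 for TOP2A, -0.58 for KIF18A, -0.54 for MAD2L1, -0.53 for BUB1 and -0.50 for PLK1. Smaller differences were -0.46 for KIF2C and TTK, -0.39 for CENPA, -0.30 for RACGAP1 and CCNA2, -0.23 for CDC20 and NUF2 and -0.14 for KIF4A. The effect was larger at 6 h for HMMR (0.94), CDC25C (0.84), CCNB2 (0.34), NEK2 (0.30), KIF11 (0.28), AURKA (0.27) and CDC25B (0.22). The directions of CDC20, NUF2 and KIF4A turned without scaling factors.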

How the results depend on the processing

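Of 230 called results for single genes, tested under 14 alternatives each, 2862 of 3220 kept their direction and call, 352 lost the call and 6 turned. The counts of members lower at 6 h and 24 h of LY2835219 against untreated cells stayed at 43 to 45 and at 45 with each library left out, and from 6 h to 24 h 32 to 37 were called, 26 to 30 of them lower and 6 to 9 higher. The untreated comparisons were less stable. For EWS-FLI1 against mCherry the count of 30 was 12 with transcript length offsets, 11 by limma on log2(TPM + 1) and 16 to 29 with a library left out. For EWS-FLI1mut against mCherry the 13 became 2, 0 and 5 to 10. For EWS(YS37)-FLI1 against mCherry it was 11 to 20 with a library left out, and 12 with transcript length offsets. For EWS-FLI1 against EWS-FLI1mut the 8 became 14 without scaling factors, 0 with transcript length offsets, 5 by limma and 2 to 8 with a library left out. For EWS-FLI1 against EWS(YS37)-FLI1 the 22 became 12 by limma and 18 to 21 with a library left out.

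For EWS(YS37)-FLI1 against EWS-FLI1mut the 15 became 13 with upper-quartile factors, 11 without scaling factors, 5 with transcript length offsets, 7 by limma and 9 to 14 with a library left out, and the majority direction turned with upper-quartile factors, without scaling factors, by limma and without EWS-FLI1mut replicate 2 or EWS(YS37)-FLI1 replicate 2. The median of the 45 there was 0.04 and became -0.0254 without scaling factors, -0.0930 by limma and -0.0240 to 0.0889 with a library left out, and ANLN turned to -0.0157 by limma. From 6 h to 24 h, KIF4A turned to 0.12 without scaling factors and by limma, CDC20 to 0.0262 and 0.0441, and NUF2 to 0.0328 without scaling factors. The cause was not tested.

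The replicate numbers gave no pairing that held across the comparisons. Same-numbered libraries' deviations correlated between -0.04 and 0.06, and not every library correlated best with its own number. In EWS-FLI1mut against mCherry every library did, with correlations of 0.061, 0.062 and 0.041. With a replicate block the member counts were 30, 12, 19, 9, 21, 15, 44, 35 and 45 in the order EWS-FLI1, EWS-FLI1mut and EWS(YS37)-FLI1 against mCherry, EWS-FLI1 against EWS-FLI1mut and against EWS(YS37)-FLI1, EWS(YS37)-FLI1 against EWS-FLI1mut, then 6 h, 24 h against 6 h, and 24 h. CDC25C is limited by depth, with 59 counts in its lowest 6 h library.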
